A study of Homo sapiens with 4 samples.

Results

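Imprinted genes are transcribed mainly from the maternal or mainly from the paternal copy. The copy in use is set by marks, chiefly DNA methylation at imprinting control regions, laid down in the germ line. Many of them lie in clusters that share a control region, and many act on growth: paternally expressed IGF2 drives fetal and tumor growth, and several maternally expressed genes restrain it. Loss or relaxation of imprinting is a known feature of many cancers.

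Expression of 10 listed imprinted genes other than IGF2 was described in PANC-1, an established human pancreatic ductal carcinoma line, by RNA-seq. The genes were picked by name: HOTS, CDKN1C, PHLDA2 and SLC22A18 at 11p15, MEST at 7q32, PEG10 and SGCE at 7q21, GRB10 at 7p12, PLAGL1 at 6q24 and PEG3 at 19q13. Of the 16878 genes in the tables, 9 of the 10 had a row, and PEG3 was not analysed here. The list was selected on the siSIRT1 against Control difference in these same libraries, so the values of its genes are a description: no p-value is given for any of them, and a count of those past a threshold supports nothing. The question put to the data was whether a difference seen at IGF2 and HOTS was shared by other imprinted genes.

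The study compared 2 Control libraries with 2 libraries from cells given siRNA against SIRT1, an NAD-dependent deacetylase (siSIRT1), each 48 h after transfection. All 4 libraries came from the PANC-1 line. The labels do not say which control RNA the Control cells received, nor whether replicates were separate cultures, so every p-value measures only the spread between these libraries. SIRT1 itself stood at 10.46 and 10.25 FPKM in Control, against 1.80 and 2.05 FPKM in siSIRT1, a log2 difference of -1.96 ± 0.113 (SE) (limma, adjusted p = 1.33e-05). FPKM counts fragments per length of transcript, scaled to the total of the library.

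Depth, estimated from the steps in the low values, was 8750000 to 9150000 reads per library, and 12123 to 12171 genes reached 1 FPKM. The SD over genes of the log2 difference between libraries was 0.16 within Control, 0.21 within siSIRT1 and 0.41 to 0.44 between the groups. Of the markers of ductal carcinoma cells, KRT8, KRT18 and KRT19 were abundant in all libraries, EPCAM was at 5.34 to 11.21 FPKM, and VIM was abundant but lower in siSIRT1 (1465 ± 54.3 FPKM against 2123 ± 106 FPKM in Control, SD, n = 2; limma, adjusted p = 0.00126). KRT18 (0.26, limma, adjusted p = 0.035) and KRT19 (0.25, limma, adjusted p = 0.0178) were higher in siSIRT1. After median-of-ratios scaling neither was under 0.05 (limma, adjusted p = 0.249 and 0.165). KRT8 (0.25) and EPCAM (0.52) were also above Control in both siSIRT1 libraries (limma, adjusted p = 0.0513 and 0.0555). The acinar markers PRSS1, CPA1 and CELA3A, the endocrine marker CHGA, and the endothelial and fibroblast markers measured stayed under 1 FPKM in every library. Of the immune markers, PTPRC was at 0.97 to 1.29 FPKM, and CD68, a lysosomal protein, was lower in siSIRT1 (40.72 ± 2.3 FPKM against 61.87 ± 1.55 FPKM in Control, SD, n = 2); their part in the results was not tested. Of 12191 genes that averaged 1 FPKM or more, 4521 passed an adjusted p of 0.05 (limma), which is 37.1%, with 13.1% lower and 24% higher in siSIRT1. That split moved with scaling: 64.8% of the calls were higher in siSIRT1 with the values as deposited and 49.6% after median-of-ratios scaling. Control and siSIRT1 values lay apart, without overlap, in 69.0% of the tested genes.

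The 4 genes at 11p15 were all lower in siSIRT1, and the 5 measured genes at other loci were mixed. All 9 genes with a row passed the filter of 1 FPKM. Of these, 5 passed the threshold (4 lower and 1 higher) and 6 had groups that did not overlap; since the genes were chosen on this contrast, nothing is read from these counts against the shares of all genes. The median log2 difference was -0.90 over the 4 genes at 11p15 and 0.14 over the 5 at other loci, beside 0.07 over all tested genes. HOTS, whose fall led to the question, is among those at 11p15, so these medians are a description only. Apart from HOTS, the genes at 11p15 were CDKN1C (-1.27), PHLDA2 (-0.54) and SLC22A18 (-0.41). By the copy usually expressed, the 4 maternal genes were those at 11p15. The 4 paternal genes, MEST, PEG10, SGCE and PLAGL1, had a median of 0.08, from -0.12 (PEG10) to 0.77 (MEST). GRB10 belongs to neither set, because the copy in use depends on the tissue. In bulk RNA, fewer cells expressing a gene and less RNA per cell cannot be told apart, and the tables do not separate the parental copies.

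**Figure D1:**
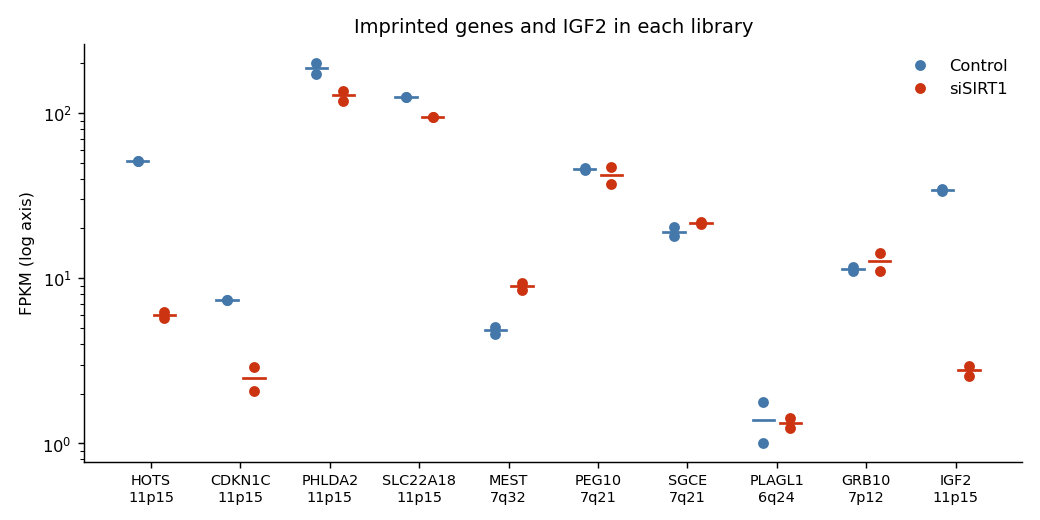
FPKM (log axis) of the 9 imprinted genes and IGF2 in each library, with Control in blue, siSIRT1 in red, a point per library and a bar at the group mean. HOTS and IGF2 stand furthest apart between the groups, MEST is higher in siSIRT1, and PEG10, PLAGL1 and GRB10 overlap.

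HOTS is the transcript that runs opposite to H19, the maternally expressed noncoding RNA that shares enhancers and a control region with IGF2. Its value was 50.94 and 51.13 FPKM in Control, against 6.21 and 5.73 FPKM in siSIRT1. Control libraries lay within 0.134 FPKM (SD) of a mean of 51.03, and the siSIRT1 mean of 5.97 ± 0.339 (SD, n = 2) was 11.7% of it. The log2 difference was -2.90 ± 0.077 (SE), and it lay between -3.08 and -2.90 under the other scalings, filters and pseudocounts. H19 was not analysed here, and no source says that strand was used in counting, so reads of H19 and of HOTS cannot be told apart. The value listed under HOTS may hold either.

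IGF2, the neighbour that HOTS was set beside, stood at 34.45 and 33.88 FPKM in Control, against 2.57 and 2.96 FPKM in siSIRT1, 8.09% of Control and a log2 difference of -3.23. The ratio of HOTS to IGF2 was 1.48 and 1.51 in Control, against 2.42 and 1.94 in siSIRT1, so IGF2 had lost proportionally more in both siSIRT1 libraries.

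CDKN1C encodes the cyclin-dependent kinase inhibitor p57, a maternally expressed brake on cell division. It was at 7.35 and 7.36 FPKM in Control, against 2.91 and 2.07 FPKM in siSIRT1, from about 112 and 114 reads and 43 and 32 reads. The siSIRT1 mean was 33.9% of Control, a log2 difference of -1.27 ± 0.140 (SE). Each siSIRT1 library was below both Control libraries, and the estimate ranged from -1.44 to -1.10 when libraries were left out in turn.

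PHLDA2, a maternally expressed gene that limits placental growth, was the most abundant of the imprinted genes in both groups. It had 200.8 and 171.62 FPKM in Control, against 136.67 and 118.73 FPKM in siSIRT1. The mean went from 186.2 ± 20.6 to 127.7 ± 12.7 FPKM (SD, n = 2), which is 68.6% of Control. Its log2 difference was -0.54 ± 0.092 (SE). The groups did not overlap, although the spread within each was wide beside the gap between 171.62 and 136.67 FPKM.

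SLC22A18, a maternally expressed membrane transporter gene between CDKN1C and PHLDA2, was at 125.01 and 125.76 FPKM in Control, against 93.99 and 94.4 FPKM in siSIRT1. The libraries of each group differed by less than 1 FPKM, and the mean in siSIRT1 was 75.1% of Control, a log2 difference of -0.41 ± 0.055 (SE). The gene overlaps SLC22A18AS on the other strand. SLC22A18AS was far lower, at 1.54 and 1.22 FPKM in Control, against 0.57 and 1.36 FPKM in siSIRT1.

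MEST, a paternally expressed gene of the alpha/beta hydrolase fold family also called PEG1, was the listed gene with the highest positive difference. It was at 4.59 and 5.08 FPKM in Control, against 9.39 and 8.48 FPKM in siSIRT1, from about 106 and 119 reads and 211 and 197 reads. The mean in siSIRT1 was 185% of Control, a log2 difference of 0.77 ± 0.109 (SE) that stayed between 0.70 and 0.83 when libraries were left out in turn. MEST and COPG2, a coat protein gene, run toward each other and their annotated ends overlap by 228 bases. COPG2, named for this position after its values were seen, fell from 8.59 and 8.23 to 5.75 and 5.99 FPKM (log2 difference -0.45 ± 0.10, limma, adjusted p = 0.00795).

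PEG10, a paternally expressed gene derived from a retrotransposon, was at 44.94 and 46.19 FPKM in Control, against 37 and 47.32 FPKM in siSIRT1. The siSIRT1 libraries lay on either side of Control, and the log2 difference was -0.12 with a 95% interval of -0.36 to 0.12. It was -0.29 without siSIRT1 replicate 2 and 0.05 without siSIRT1 replicate 1. SGCE, a sarcoglycan gene that starts head to head with PEG10, was at 17.98 and 20.34 FPKM in Control, against 22.01 and 21.28 FPKM in siSIRT1. Its groups did not overlap, but the log2 difference of 0.17 had an interval of -0.02 to 0.36. The annotated genes PEG10 and SGCE overlap by 248 bases on opposite strands, and the ratio of PEG10 to SGCE was 2.50 and 2.27 in Control, against 1.68 and 2.22 in siSIRT1.

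GRB10, an adaptor that dampens insulin and insulin-like growth factor receptor signaling, was at 11.68 and 10.99 FPKM in Control, against 11.09 and 14.2 FPKM in siSIRT1. The log2 difference was 0.14 (interval -0.13 to 0.40). It was 0.30 without siSIRT1 replicate 1 and -0.03 without siSIRT1 replicate 2. PLAGL1, a zinc finger transcription factor, had the lowest level of the listed genes, at 1.77 and 1.01 FPKM in Control, against 1.42 and 1.24 FPKM in siSIRT1. Its log2 difference was -0.02 (interval -0.42 to 0.38), with only 29 to 51 reads behind each value. These intervals are wide enough that moderate differences of PLAGL1 or GRB10 were not detectable at this depth and number of libraries.

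**Figure D2:**
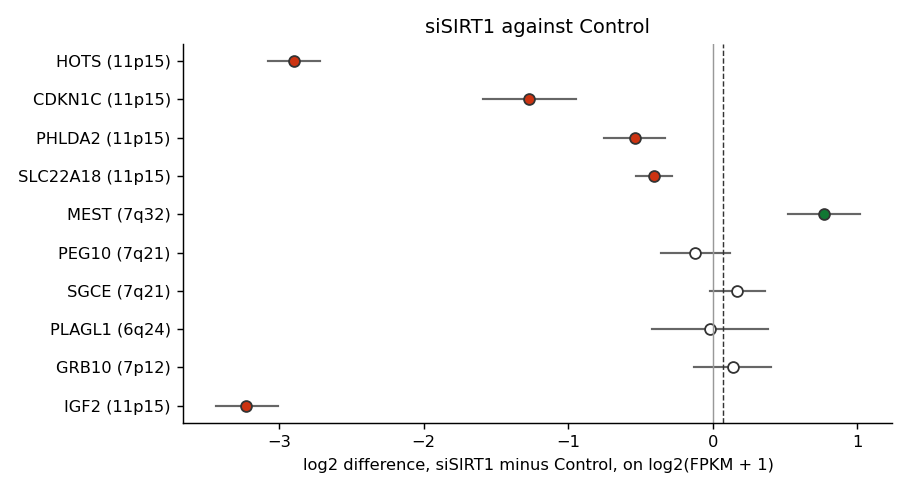
Log2 difference (siSIRT1 minus Control, on the log2(FPKM + 1) scale) of the 9 imprinted genes and IGF2 with the 95% interval of the limma fit before adjustment. Filled points passed the threshold (red lower, green higher), open points did not, and the dashed line is the median of all tested genes, 0.07.

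Levels per transcript length put PHLDA2, SLC22A18, HOTS and PEG10 at the top in Control, followed by SGCE, GRB10, CDKN1C, MEST and PLAGL1. In siSIRT1 the order was PHLDA2, SLC22A18, PEG10, SGCE, GRB10, MEST, HOTS, CDKN1C and PLAGL1. HOTS moved from rank 3 to rank 7, and MEST from rank 8 to rank 6. No pair of neighbours in either order overlapped in its library values, which with 2 libraries a group is a weak separation. HOTS was 1.13 and 1.11 times PEG10 in Control and 0.168 and 0.121 times PEG10 in siSIRT1.

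Over the 4 libraries, the genes with the pattern nearest to HOTS, by Euclidean distance of log2(FPKM + 1) centred on each gene's mean, were PPP1R1B (0.235), SPARC (0.322), IGF2 (0.369), GJB2 (0.606) and PADI3 (0.63). PPP1R1B was at 32.75 and 34.0 FPKM in Control, against 2.99 and 2.86 FPKM in siSIRT1. With 4 points per gene this ranks genes by the size of the group difference and by the scatter within groups. IGF2 was the one gene among these 5 from the same locus as HOTS. IGF2 and HOTS were singled out together for their fall in these libraries, so this rank is a description and supports nothing.

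By position, the genes at 11p15 fall into separate stretches. On GRCh37 (GENCODE annotation), H19, which HOTS overlaps, spans chr11:2016396-2025782 on the minus strand, and IGF2 begins 125 kb further on. CDKN1C (chr11:2904443-2907005), SLC22A18 (chr11:2920951-2946476) and PHLDA2 (chr11:2949503-2950650) lie within 46.2 kb, starting 879 kb from H19. The stretch with H19 and IGF2 held the larger differences (HOTS -2.90), and in the second stretch CDKN1C was at -1.27, with PHLDA2 and SLC22A18 at -0.54 and -0.41. MEST (chr7:130126012-130146306), PEG10 (chr7:94285637-94299007), SGCE (chr7:94153516-94285884), GRB10 (chr7:50657760-50861159) and PLAGL1 (chr6:144261437-144385736) are single genes or pairs elsewhere.

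Promoter sequence from RefSeq (GRCh38.p14, 250 bases before to 50 after a start) was matched for 4 genes: H19, MEST, PLAGL1 and GRB10. The sequences below set the H19 window, at the locus of HOTS, beside the window richest in CpG of MEST and of PLAGL1. HOTS was lower in siSIRT1, MEST was higher, and the groups of PLAGL1 overlapped. The H19 window, the only one matched for that gene, follows the strand of H19, opposite to HOTS. It is not taken as the promoter of HOTS. CpG dinucleotides, the sites of DNA methylation, are in capitals. The coordinates are chr11:2001217-2001516 on the minus strand for H19, chr7:130491835-130492134 on the plus strand for MEST and chr6:144008210-144008509 on the minus strand for PLAGL1.
H19: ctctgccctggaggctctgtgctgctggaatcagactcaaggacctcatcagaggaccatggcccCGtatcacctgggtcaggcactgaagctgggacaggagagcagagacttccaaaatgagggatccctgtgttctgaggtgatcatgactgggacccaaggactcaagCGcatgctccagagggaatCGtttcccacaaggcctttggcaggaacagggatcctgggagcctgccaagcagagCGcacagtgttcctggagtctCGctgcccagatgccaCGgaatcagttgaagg
MEST: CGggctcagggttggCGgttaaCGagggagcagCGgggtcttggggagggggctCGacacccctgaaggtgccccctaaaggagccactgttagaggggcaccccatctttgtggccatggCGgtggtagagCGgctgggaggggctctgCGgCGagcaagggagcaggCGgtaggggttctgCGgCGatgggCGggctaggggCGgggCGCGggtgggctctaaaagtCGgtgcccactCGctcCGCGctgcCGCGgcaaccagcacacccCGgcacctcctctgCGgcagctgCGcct
PLAGL1: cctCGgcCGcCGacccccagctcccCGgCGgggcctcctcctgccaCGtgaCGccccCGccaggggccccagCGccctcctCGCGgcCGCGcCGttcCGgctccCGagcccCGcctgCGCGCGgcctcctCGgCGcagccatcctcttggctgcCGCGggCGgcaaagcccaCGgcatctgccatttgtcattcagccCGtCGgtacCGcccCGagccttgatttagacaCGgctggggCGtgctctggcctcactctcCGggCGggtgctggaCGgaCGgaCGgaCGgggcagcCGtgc
The H19 window holds 6 CpG at 57.7% GC, the MEST window 25 at 70.3% and the PLAGL1 window 39 at 75.7%, beside a median of 14 over the 35116 windows of the table. The hexamer TGCCGC, bound by the imprint-keeping factor ZFP57 when methylated, was searched on both strands. It occurs 3 times in the MEST window, 2 times in the PLAGL1 window and 0 times in the H19 window, and 16.7% of all windows hold it. The MEST and PLAGL1 windows were picked for CpG, which the hexamer contains, so that share is not a like background. Nor are their CpG counts a like comparison with the H19 window, which was not picked. Of the 16 windows of these 4 genes, 6 hold it. Some of these are MEST windows that overlap each other, so the same site is counted more than once. A match is a description of letters, not of binding, and DNA methylation was not analysed here.

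Genes within 1000000 bases of the listed genes did not share one direction. Of 78 such neighbours tested, 23 passed the threshold (15 higher, 8 lower), which is 29.5% beside 37.1% of all genes, with a median log2 difference of 0.02. Without Control replicate 1 the count was 15. At 11p15, 13 of 21 neighbours passed, 9 higher and 4 lower, with a median of 0.15, while the 4 listed imprinted genes of that locus were all lower. The listed genes were selected on this contrast and the neighbours by position, so setting them side by side is a description and supports nothing.

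Among the 11p15 neighbours that passed with a log2 difference beyond 0.5 in size, TOLLIP (0.64), BRSK2 (0.59), RHOG (0.53), CHRNA10 (0.52) and DUSP8 (0.51) were higher, and IFITM10 (-0.81) and CTSD (-0.52), the lysosomal protease cathepsin D, were lower. A few genes next to imprinted ones were named for their position after their values were seen, and they did not share a direction. MRPL23, beside H19, was at 64.63 and 64.56 FPKM in Control, against 98.7 and 80.93 FPKM in siSIRT1 (limma, adjusted p = 0.00421). NAP1L4, beside PHLDA2, was at 60.48 and 60.69 FPKM and 76.21 and 69.4 FPKM (limma, adjusted p = 0.0144), and it did not pass after median-of-ratios scaling (limma, adjusted p = 0.106). CARS, the next measured gene after NAP1L4, was lower, with 135.36 and 129.09 FPKM in Control, against 104.62 and 100.81 FPKM in siSIRT1 (limma, adjusted p = 0.00185).

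**Figure D3:**
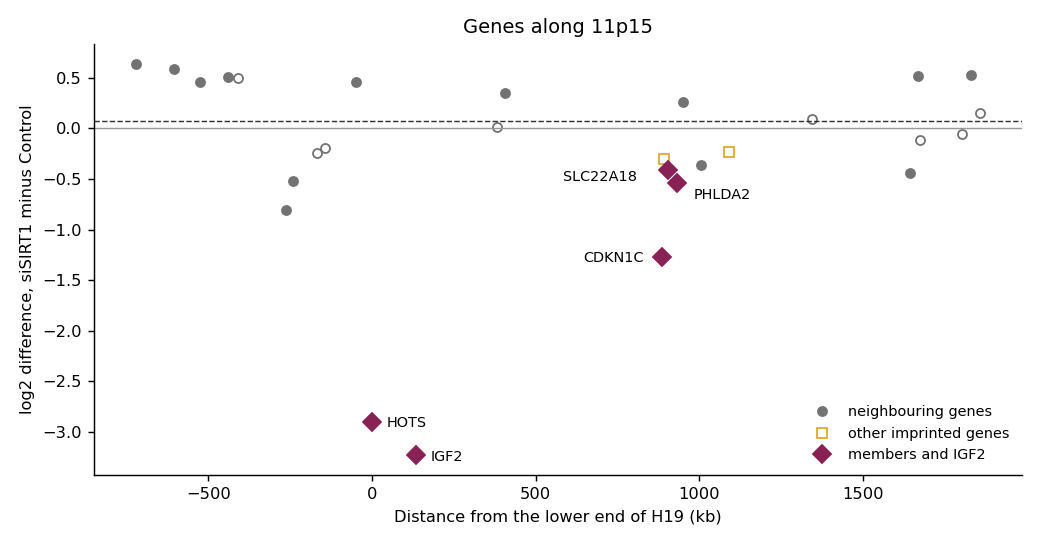
Log2 difference (siSIRT1 minus Control) against distance in kb from the lower end of H19, where HOTS is placed, with the imprinted genes and IGF2 as diamonds, other imprinted genes as squares and neighbouring genes as circles, filled where they passed the threshold. HOTS lies at -2.90, IGF2 at -3.23 and CDKN1C at -1.27, and 13 of 21 neighbours lie above 0.

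The share of neighbours past the threshold around the listed genes elsewhere is to be read beside the 37.1% of all genes, and these sets are small. At 7q32, 2 of 9 passed, COPG2 and the ubiquitin-conjugating enzyme gene UBE2H (-0.73), both lower while MEST was higher. At 7q21, 2 of 7 passed beside PEG10 and SGCE: GNG11 (1.34) was higher and PDK4 (-1.02), a kinase that restrains pyruvate oxidation, was lower. PDK4 was at 1.71 and 1.91 FPKM in Control, against 0.36 and 0.41 FPKM in siSIRT1. It passed the filter of 1 FPKM only through Control, so its call as lower is a description only. At 6q24, 2 of 8 passed around PLAGL1, among them SF3B5 (0.59). At 7p12 the one neighbour of GRB10 that was tested, FIGNL1, did not pass (0.12, interval -0.16 to 0.39). Near the place of PEG3 at 19q13, 4 of 32 passed, with ZNF460 at -0.90, where siSIRT1 held 1.44 and 3.99 FPKM against 5.59 and 5.39 FPKM in Control, and it did not pass without the filter (limma, adjusted p = 0.165). The other 3 (ZNF416, ZNF444 and ZNF552) did not pass after median-of-ratios scaling.

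**Figure D4:**
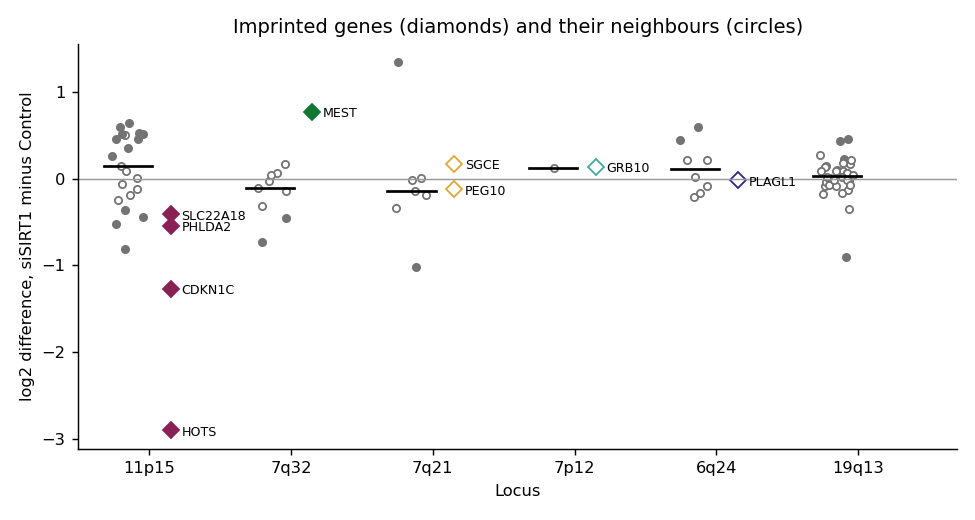
Log2 difference (siSIRT1 minus Control) of the listed imprinted genes (diamonds, named) and of their tested neighbours (circles) by locus, filled where past the threshold, with a black bar at the neighbours' median. The 4 diamonds at 11p15 lie below a neighbour median of 0.15, and MEST lies above all its neighbours at 7q32. The diamonds were selected on this contrast and the circles by position, so the comparison is a description only.

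A wider list of 59 other imprinted genes was examined to see how far the pattern reached. It holds genes reported as imprinted in at least some human tissues, and whether each is imprinted in PANC-1 was not tested. Of these, 40 had a row, 22 passed the filter and 8 passed the threshold, 7 higher and 1 lower. That is 36.4%, close to the 37.1% of all genes, and the median log2 difference was 0.01 beside 0.07. The count was 5 without Control replicate 1 and 5 without Control replicate 2.

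DIO3, which inactivates thyroid hormone and lies in the 14q32 imprinted cluster, was the one gene of that list that passed the threshold as lower. It went from 5.34 and 5.12 FPKM to 2.24 and 1.78 FPKM, a log2 difference of -1.05 ± 0.130 (SE) (limma, adjusted p = 0.000474). Its size lay between those of CDKN1C and PHLDA2. DLK1 and RTL1 of the same cluster were below the filter, at no more than 0.06 FPKM.

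CPA4, a carboxypeptidase gene at 7q32 like MEST, rose from 2.71 and 2.67 FPKM to 6.07 and 5.32 FPKM (0.86, limma, adjusted p = 0.000894). Also higher by the same test were TP73 (0.61), a p53 family gene, NAP1L5 (0.56), NAA60 (0.54), BLCAP (0.35), SNURF (0.33) and GNAS (0.24), the stimulatory G protein subunit. NAP1L5 was at 0.71 and 0.9 FPKM in Control, against 1.61 and 1.71 FPKM in siSIRT1. It passed the filter of 1 FPKM only through siSIRT1, so its call as higher is a description only. SNURF and SNRPN come from one overlapping transcript, have the same values in 3 libraries and are uncertain as separate genes. SNRPN stood at 0.21 (limma, adjusted p = 0.0669), with 0.28 without siSIRT1 replicate 2 and 0.13 without siSIRT1 replicate 1. GNAS did not pass after median-of-ratios scaling (limma, adjusted p = 0.184). Without Control replicate 1, NAP1L5 (0.49), SNURF (0.33) and GNAS (0.24) no longer passed, and without Control replicate 2 the same held for TP73 (0.52), SNURF (0.34) and GNAS (0.24).

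The rest of the list did not pass. IGF2R, the receptor that clears IGF2, was at 51.83 and 53.66 FPKM in Control, against 43.01 and 51.77 FPKM in siSIRT1. Its difference was -0.16 (interval -0.36 to 0.04), with -0.29 without siSIRT1 replicate 2 and -0.03 without siSIRT1 replicate 1. At 11p15, 0 of 2 passed by limma: SLC22A18AS at -0.30 (interval -0.77 to 0.16) and OSBPL5 at -0.23 (interval -0.45 to -0.01 before adjustment), and at an unadjusted p of 0.05 the count was 1, OSBPL5. OSBPL5 passed after median-of-ratios scaling, at -0.31 (limma, adjusted p = 0.0356). SLC22A18AS was at -0.60 without siSIRT1 replicate 2 and at -0.01 without siSIRT1 replicate 1. Its siSIRT1 values rest on about 8 and 19 reads. KCNQ1, the potassium channel gene whose domain holds CDKN1C and PHLDA2, was below the filter, with 0.76 and 1.38 FPKM in Control, against 0.35 and 0.25 FPKM in siSIRT1. The others were ZDBF2 (-0.28), UBE3A (-0.19), ZFAT (-0.13), INPP5F (-0.13), RB1 (-0.09), PPP1R9A (-0.06), ZNF597 (-0.01), WT1 (0.04), L3MBTL1 (0.08) and ZNF331 (0.25).

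**Figure D5:**
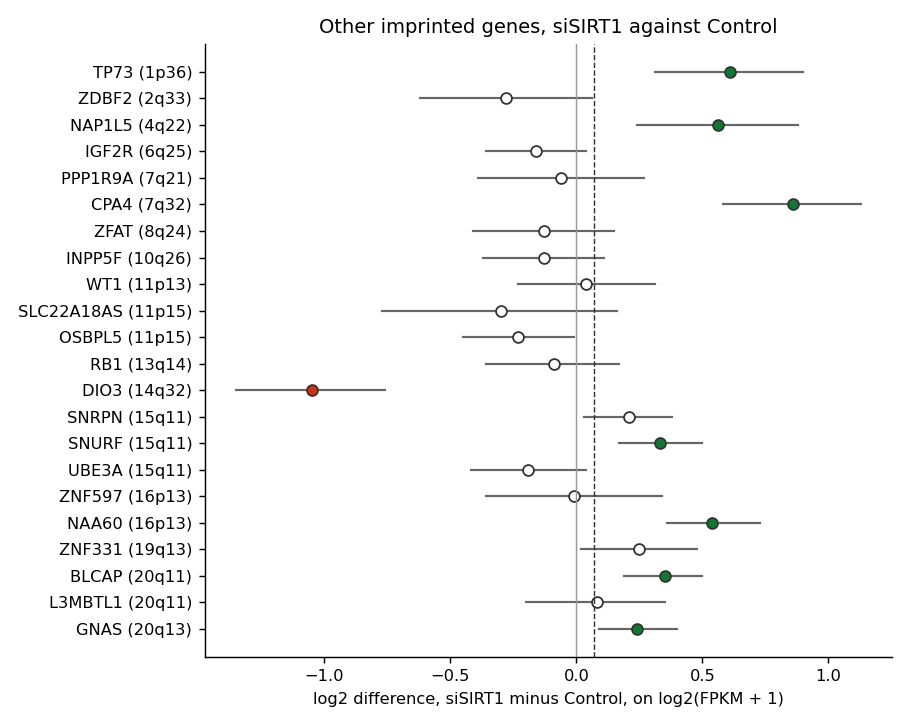
Log2 difference (siSIRT1 minus Control) of the 22 tested genes of the wider imprinted list, in order of chromosome, with 95% intervals before adjustment; filled points passed the threshold (red lower, green higher), and the dashed line marks 0.07, the median of all tested genes. DIO3 is the one filled point below 0.

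Factors that set or keep imprints, and proteins that bind the RNAs of IGF2 and H19, were examined as a further list, of which 22 were tested and 8 passed, 5 higher and 3 lower (36.4%, beside 37.1% of all genes). The factors alone gave 5 of 19 (26.3%), and the RNA-binding proteins 3 of 3. IGF2BP3, an RNA-binding protein of IGF2 messenger RNA, fell from 31.56 and 31.3 FPKM to 12.64 and 14.86 FPKM (-1.14 ± 0.088, limma, adjusted p = 5.24e-05). IGF2BP2 was lower (-0.29) and IGF2BP1 higher (0.39), so the members of that family did not move one way. UHRF1, which brings DNMT1 to replicating DNA, was higher (0.32, limma, adjusted p = 0.00833), as were DNMT3B (0.39), EED (0.36) and TRIM28 (0.19), and HMGA2 was lower (-0.25).

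The insulator protein CTCF, which binds the control region between IGF2 and H19, was at 13.47 and 13.18 FPKM in Control, against 13.33 and 11.82 FPKM in siSIRT1, a difference of -0.08 (interval -0.29 to 0.13). DNMT1, the maintenance methyltransferase, was at 0.05 (interval -0.09 to 0.19). ZFP57 was not analysed here. The count of this list was 5 after median-of-ratios scaling, when DNMT3B, EED and TRIM28 no longer passed, 4 without the filter, 1 (IGF2BP3) without Control replicate 1 and 4 without Control replicate 2 (IGF2BP3, IGF2BP1, UHRF1 and EED). DNMT3B and EED also fell short of the threshold without either siSIRT1 library, and TRIM28 and HMGA2 without siSIRT1 replicate 1.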

How the data were processed

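Total RNA of 2 Control and 2 siSIRT1 samples of PANC-1 cells was sequenced. The authors deposited 1 table per library of FPKM values for 16878 genes, by Entrez identifier, RefSeq transcripts and symbol. The submitters' processing notes name HISAT, Bowtie2 and RSEM without versions, and ChIPseeker, a peak tool. The genome build, any filter and whether counting used strand are not given in the sources used here. FPKM divides by transcript length and library total, so abundant genes that change shift all others. As deposited, 26 symbols were turned into dates, and 16846 identifiers were matched to RefSeq symbols. Positions are those of GENCODE on GRCh37, and promoters those of RefSeq on GRCh38.p14.

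The 12191 genes averaging 1 FPKM or more were fitted on log2(FPKM + 1) by limma 3.58.1 (R 4.3.3), using its moderated test with a mean-variance trend and no block. P-values are two-sided, adjusted by Benjamini-Hochberg over all 12191 genes, with a threshold of 0.05. Differences on this scale understate the change of low genes. The fit was tested on simulated data. Depth was estimated from the steps of 1 read in the low values of 71 to 91 genes per library out of 285 with short single transcripts; reads per gene are approximate and cover counting error only.

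The members and the lists (59 other imprinted genes, 22 imprint-control factors with 3 RNA-binding proteins, marker genes) were chosen with earlier results of these data known. The genes named were SIRT1, IGF2, the 10 members, the tested genes of the imprinted list, control factors past the threshold together with CTCF, DNMT1, UHRF1, ZFP57 and TRIM28, neighbours within 1000000 bases past the threshold with a log2 difference over 0.5 in size, and the 5 genes nearest to HOTS; others are said to be named after their values were seen. Alternatives were a pseudocount of 0.1, no filter (genes at 0 in all 4 libraries left out), median-of-ratios, quantile and equal-sum scaling, the replicate number as a block, eBayes without the trend and leaving out each library.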

Additional observations from a re-analysis of the deposited data

How the results depend on the processing

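With 2 libraries a group, precision is limited by their number, and at 29 to 211 reads per value also by depth for PLAGL1, CDKN1C and MEST. No gene of the listed, wider imprinted or control factor lists that passed the threshold in the main fit changed sign under the alternatives run. Some that did not pass in it, such as PEG10 and GRB10, changed sign when single libraries were left out. CD81, a neighbour at 11p15 at 0.01, passed as lower with quantile normalization, at -0.10 (limma, adjusted p = 0.0383). The listed imprinted genes were selected on this contrast, so their count past the threshold is a description only: it was 5 under each alternative that kept all libraries and 5 to 6 when libraries were left out in turn; in those fits limma lends the lone library the spread of the others. The log2 difference of SIRT1 was -2.02 to -1.90 in those fits. Over all genes, 4521 calls became 2691 to 4608 when libraries were left out, with 2744 without Control replicate 1 and 2691 without Control replicate 2. The other imprinted genes gave 5 to 11 calls in place of 8, the neighbours 15 to 22 in place of 23 and the imprint-control factors together with the RNA-binding proteins 1 to 6 in place of 8. For this last list the count was also 4 without the filter on low values, 5 with median-of-ratios scaling and 5 with equal FPKM sums; the cause was not tested.

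The replicate numbers are the only link between Control and siSIRT1 libraries. Deviations from the group means correlated at 0.123 over genes between same-numbered libraries. With the replicate block, 5393 genes passed in place of 4521, with 5 of the listed imprinted genes, 9 of the other imprinted genes, 25 of the neighbours and 9 of the control factors and RNA-binding proteins; SNRPN (limma, adjusted p = 0.0353) and EZH2 (limma, adjusted p = 0.0494) passed only with it among the fits on all libraries; the libraries share only a number, so this fit is given for comparison.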
